A study of Mus musculus with 105 samples.

Results

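Resting mouse CD4+ T cells kept for 3 h with harringtonine were compared with resting cells kept for 3 h without a drug. The comparison takes 3 harringtonine and 3 untreated libraries, 2 of the 35 groups of 3 libraries in the series, chosen by their group labels. CD4+ T cells, the helper T cells of the immune system, had been isolated by negative selection from spleen and lymph nodes of C57BL/6J female mice 6 weeks of age. Resting cells received no anti-CD3/CD28 beads, which in the rest of the series stand for activation through the T cell receptor. All groups are of this 1 strain with no engineered allele. The labels state a harringtonine dose of 2 µg/ml for its combinations with transcription inhibitors and none of its own for the drug alone. RNA came from equal numbers of cells, and ERCC RNAs, synthetic spike-in transcripts, were counted in every library. The replicates carry the numbers 2, 3 and 4 in each group and are called biological, without a mouse being named. The p-values therefore measure spread between libraries. For single genes this spread is pooled over all 35 groups of the series. Among tests of single genes, only that of exon against intron changes takes the 6 libraries alone.

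Harringtonine is a plant alkaloid that binds the ribosome and blocks the first steps of elongation, so that ribosomes already on a message run off while newly started ones stall at the start codon. Cells in which protein synthesis has been stopped in this way lose short-lived proteins first, among them labile repressors such as the inhibitors of NF-κB. Blocking translation is also known to stabilise labile messages, among them those of immediate early genes and of replication-dependent histones, whose decay depends on their translation.

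The 6 libraries held between 1331333 and 4946760 exon counts, 757110 and 3416855 strictly intronic counts and 47282 and 225952 ERCC counts. Of the reads given to the counter, 78.5% to 90.7% were left out, mostly as multiple alignments. No pair of libraries agreed within sampling noise. Markers of CD4+ T cells, such as Cd3g, Lck and Cd4, were present in every library, with a summed level between 2207 and 2377 CPM, counts scaled to library size, after harringtonine and between 2831 and 2929 without it. Of their 10 tested members, 4 (40%) were lower, where 10.6% of all genes were lower. B cell markers summed to 110, 210 and 473 CPM after harringtonine and 229, 492 and 876 without, mostly from Igkc, Jchain and Iglc1, and none of their 10 tested members passed the test. Myeloid markers stayed between 5.1 and 8.7 CPM, with C1qa, C1qb, Lyz1 and S100a9 at 0 in all 6 libraries, and the part of these cells in the results was not tested.

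Cellular exon counts stood higher against the summed spike-ins after harringtonine. They came to 34.6, 27.3 and 28.8 per ERCC count in the harringtonine libraries 2, 3 and 4, and to 19.6, 11.8 and 16.8 in the untreated libraries 2, 3 and 4. The groups did not overlap, and the geometric mean after harringtonine was 191% of that in untreated cells, with same-numbered pairs between 171% and 231%. An exact permutation test, two-sided, gave p = 0.1, the smallest that 3 against 3 libraries allow. Cells at 0 h held 18.8, 15.7 and 23.4 exon counts per ERCC count, reaching above the untreated 3 h libraries and staying below those with harringtonine. In bulk RNA a change in the share of a cell type and a change of RNA per cell cannot be told apart. Strictly intronic counts per ERCC count came to 140% of the untreated value, and the libraries held 46.2, 70.5 and 61.2 intron counts per 100 exon counts with harringtonine against 63.7, 88.0 and 89.8 without.

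The makeup of the spike-ins themselves differed between the groups. ERCC-00002 made up 45.1%, 42.7% and 40.5% of the ERCC counts with harringtonine and 23.1%, 21.8% and 19.1% without. ERCC-00130 went the other way, with 6.9%, 7.0% and 6.7% against 27.3%, 28% and 27.7%. ERCC RNAs are sold as 2 mixes that hold the same RNAs in different proportions, and which mix entered which tube is not given in the sources used here. Exon counts per count of ERCC-00096, whose share was 21.6%, 20.4% and 20.6% against 23.5%, 19.6% and 15.8%, were 160.7, 134.2 and 140.3 with harringtonine and 83.4, 60.5 and 107.0 without, a log2 difference of 0.83. Over the 17 RNAs with at least 100 counts, single-RNA estimates ran from -0.07 for ERCC-00002, the only one below 0, to 3.36 for ERCC-00004. With ERCC-00002 left out of the sum the log2 difference was 1.39 in place of 0.93. Exon counts per ERCC-00002 count were 76.9, 64.1 and 71.3 with harringtonine and 84.9, 54.2 and 88.0 without, which overlap. Whether exon counts per spike-in rose, and by how much, therefore depends on which spike-ins are counted, and changes of single genes are given relative to the typical gene (TMM scaling), with the ERCC scale beside them.

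**Figure D1:**
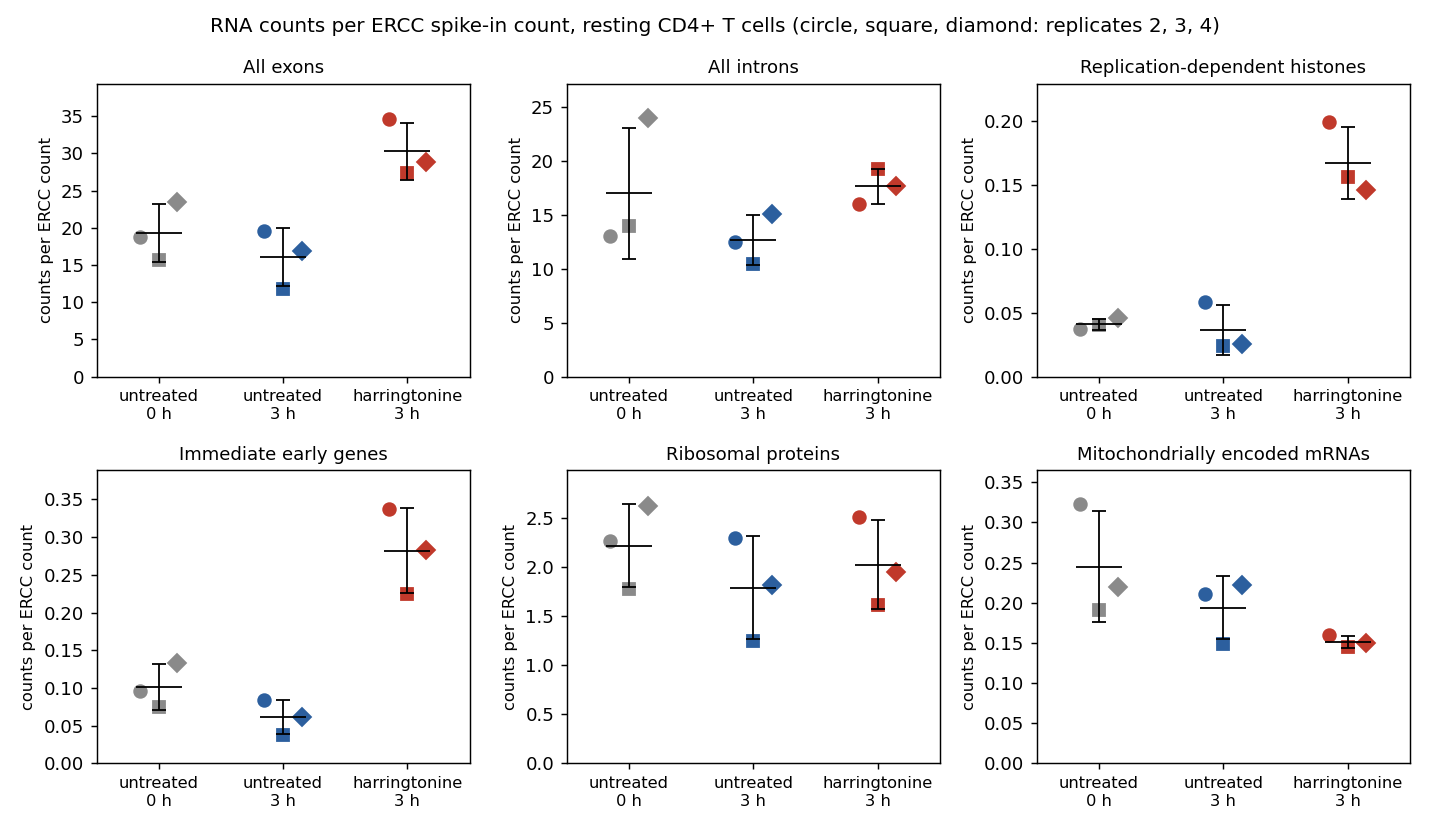
Counts per ERCC count (vertical axes, linear from 0) in resting cells at 0 h, untreated at 3 h and with harringtonine at 3 h; each point is 1 library and the bar is the group mean. Exon counts of the harringtonine libraries lie between 27.3 and 34.6, above the untreated range of 11.8 to 19.6.

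At the level of single genes, harringtonine changed messages in both directions within 3 h. Of 10741 genes tested in exons, 1057 (9.84%) were higher and 1141 (10.6%) lower at an adjusted p under 0.05 by edgeR's quasi-likelihood test with Benjamini-Hochberg adjustment, or 20.5% in either direction. More than 2-fold changes were called for 399 genes upward and 432 downward, and more than 4-fold changes for 33 and 24. The 3 levels of each group did not overlap for 2037 of the called genes and for 4105 (38.2%) of all genes tested. With the replicate number as a block, which the data show to pair the libraries, the calls were 1882 higher and 2083 lower. Under DESeq2-type size factors the split was 1469 higher and 774 lower, 65.5% of calls upward against 48.1%, with the median gene at 0.08 in place of -0.03 on the log2 scale. On the ERCC scale, a shift of about 1 log2 unit for every gene, the median gene lies at 1.0, with 6453 genes (60.1%) higher and 21 (0.196%) lower.

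The largest rises included feedback regulators and transcription factors of the immediate early response and histones. Dusp8, a phosphatase that switches off stress-activated MAP kinases, stood at 28.5, 19 and 23 CPM with harringtonine and at 2.69, 2.25 and 1.26 CPM without. The groups were far apart, and Dusp8 rose by a log2 change of 3.60 ± 0.42 (standard error; adjusted p = 7.8e-10, edgeR). Rgs1, which shortens signalling of chemokine receptors through G proteins, rose from 31.6, 33.8 and 53.3 CPM to 211, 193 and 264 CPM, a log2 change of 2.46 ± 0.29 (adjusted p = 1.2e-09, edgeR). Its relative Rgs2 rose by 2.23 ± 0.29, from levels of 122, 114 and 175 CPM to 643, 608 and 686 CPM. Gem, a small GTPase that damps calcium channels, rose by 2.39 ± 0.35, and Ier5l, an immediate early gene, by 2.57 ± 0.43. In each of these genes the lowest harringtonine library lay above the highest untreated one.

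The transcription factors Fosl2 and Atf3 and the stress adaptor Gadd45b were also among the largest rises. Fosl2, an AP-1 subunit, was measured at 516, 325 and 395 CPM with harringtonine and 112, 76.1 and 72.5 CPM without, a log2 change of 2.26 ± 0.36 (adjusted p = 2.8e-06, edgeR). Atf3, a stress-induced factor of the same dimerising class, went from 6.73, 2.25 and 9.09 CPM to 34.1, 23.6 and 41.5 CPM, a log2 change of 2.37 ± 0.43. Gadd45b, an adaptor of stress kinase signalling, rose by 2.25 ± 0.29. Vps37b, a component of the ESCRT-I sorting complex, and Gls2, a mitochondrial glutaminase, completed the 12 largest rises with 2.19 ± 0.35 and 2.26 ± 0.46, beside the histones Hist1h2bn and Hist1h3a. The median log2 change of the 38 immediate early genes tested was 0.91 against -0.03 for all genes. Against 9.84% of all genes higher and 10.6% lower, 20 of the 38 (52.6%) were higher and 0 lower. Jun (1.92), Junb (1.68), Dusp5 (1.82), Klf6 (1.37) and Dusp1 (1.17) were among them, and Btg2 and Mafk were the smallest called rises at 0.76 and 0.72. Summed over the list, these genes held 476% of the untreated level per ERCC count, where all exon counts held 191%. The exact permutation test, two-sided, gave p = 0.1 for both. The untreated level of the list at 3 h was itself 59.3% of that at 0 h, with overlapping groups. Its counts per ERCC count were 0.096, 0.0743 and 0.134 at 0 h and 0.0843, 0.0384 and 0.0616 untreated at 3 h. With harringtonine they were 0.3375, 0.2251 and 0.2832. Of the 38 genes, 9 were lower in untreated cells at 3 h against 0 h, where 361 of all 10741 genes were. In TMM-scaled CPM the list sums were 6756 to 8613 with harringtonine and 2960 to 3853 without.

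**Figure D2:**
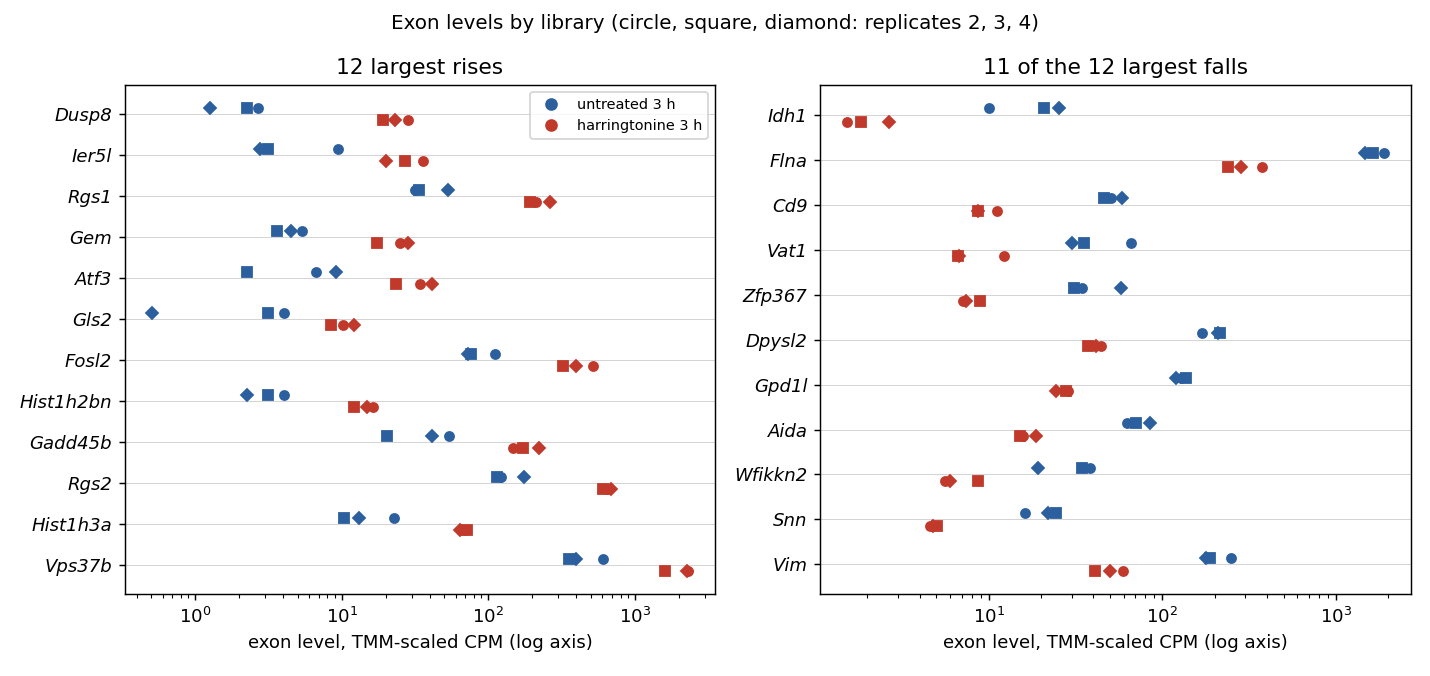
Exon level in TMM-scaled CPM (horizontal log axis) of the 12 largest rises and 11 of the 12 largest falls, with 1 point per library, untreated in blue and harringtonine in red. Colours do not overlap in any of these genes, which the naming rule required.

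Regulators of NF-κB formed a second group of rises. The median of the 22 tested was 0.83. Against 9.84% of all genes higher and 10.6% lower, 12 of the 22 (54.55%) rose and 0 fell. The 12 rises comprised the inhibitors Nfkbia (0.81), which encodes IκBα, and Nfkbie (1.65), the brakes Tnfaip3 (A20, 2.04) and Tnip1 (1.19), the subunits Rela, Relb, Nfkb1 and Nfkb2, the coactivator Bcl3 (1.70) and the targets Icam1, Traf1 and Birc3. Tnfaip3, a ubiquitin-editing enzyme, rose from 676, 592 and 695 CPM to 2778, 2375 and 2932 CPM (log2 change 2.04 ± 0.23, adjusted p = 7.2e-11, edgeR). Its introns rose as well, by 1.65 ± 0.32 (adjusted p = 4.6e-04, edgeR). In untreated cells at 3 h against 0 h, 3 of the 22 NF-κB genes were lower and 0 higher, with a median of -0.37. The letters GGGANNNNCC on either strand, the shape of a κB motif, were found in the RefSeq promoter window (250 bases before to 50 after the start, GRCm38.p6) of 10 of the 19 NF-κB genes with an entry, 52.6%, against 30.02% of all tested genes. Among all called genes with an entry, they were found in 29.29% of those higher and 34.27% of those lower. The windows of 2 called genes that feed back on the pathway are shown with the match in capitals, which in Tnfaip3 reads as the motif on the opposite strand:
Tnfaip3, chr10:19012033-19012062, minus strand: tgaaaacgtgGGTTATTCCCctcctcctca
Nfkbia, chr12:55492840-55492869, minus strand: gcaggctgcaGGGAAGTACCtagagggagg

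Replication-dependent histone messages, which end in a stem-loop in place of a poly(A) tail, were raised in all 5 classes. Of 54 tested, 27 (50%) were higher and 0 lower, against 9.84% and 10.6% of all genes. The median was 1.22 and 52 of the 54 lay above 0. Without untreated replicate 4 the number higher was 15, and with the replicate block it was 43. By class, 12 of 13 H4 genes, 7 of 13 H2B, 4 of 13 H2A, 3 of 10 H3 and 1 of 5 H1 genes were called. The medians ran from 0.86 for H1 to 1.69 for H4. Hist1h3a went from 22.9, 10.3 and 13.1 CPM to 69.7, 71.8 and 64.2 CPM, a log2 change of 2.20 ± 0.44 (adjusted p = 1.4e-04, edgeR). Summed histone counts per ERCC count were 0.199, 0.156 and 0.146 with harringtonine and 0.0587, 0.0243 and 0.0259 without, and the groups did not overlap. As a share of all exon counts they were 0.575%, 0.571% and 0.505% with harringtonine and 0.300%, 0.205% and 0.153% without. Of the 54 genes, 43 have an annotated 3′ UTR (GENCODE M21, GRCm38) and 37 hold the stem-loop there, of which 19 were called higher. Of the 17 with no stem-loop found, which include those without an annotated 3′ UTR, 8 were called higher. Across all genes with an annotated 3′ UTR, 0.429% hold it. The stem, loop and flanks of 4 called genes are printed with the stem-loop in capitals:
Hist1h3a, chr13:23761885-23761910, minus strand: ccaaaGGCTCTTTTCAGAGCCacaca
Hist1h4b, chr13:23757361-23757386, plus strand: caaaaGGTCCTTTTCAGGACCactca
Hist1h4c, chr13:23698084-23698109, minus strand: caaaaGGCCCTTTTCAGGGCCaccca
Hist4h4, chr6:136803993-136804018, minus strand: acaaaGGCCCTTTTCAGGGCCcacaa
The loop TTTC is the same in all 4, while the paired stem differs between Hist1h3a, Hist1h4b and the other two. Many histone genes are near-identical copies, and reads that align to several places were not counted, so the level of a single histone can be undercounted.

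Among factors that make ribosomes and factors that process or degrade RNA, most members were not called, and more were called higher than lower. The share higher was 29.6% for ribosome biogenesis and 21.7% for deadenylation, decapping and exosome genes. It was 16.7% for nonsense-mediated decay, 22.6% for splicing factors and 18.8% for Zfp genes, against 9.84% of all genes. Of 54 ribosome biogenesis genes, 16 were higher and 1, the nucleolar chaperone Npm1 (-1.03), lower, with a median of 0.45. The number higher was 8 without harringtonine replicate 4 or untreated replicate 3, 9 without harringtonine replicate 2, 10 without untreated replicate 4, 26 under RLE size factors and 30 with the replicate block. Grwd1 (1.34), Rrp1b (1.20) and Nop56 (0.93), which act in the assembly or modification of ribosomal RNA, were among the higher ones. Of 46 genes for deadenylation, decapping and exosome subunits, 10 were higher and 0 lower, led by the exosome subunits Exosc2 (1.59) and Exosc4 (1.37) and the antiproliferative gene Btg3 (1.47). Of 18 nonsense-mediated decay factors, Smg9, Smg5 and Casc3 were higher. Splicing factors of the SR and hnRNP families gave 12 higher and 3 lower of 53, with Srsf4 (1.08), Srsf7 (0.96) and Srsf3 (0.92) higher and Srsf1 (-0.64) lower. Numbered zinc-finger genes (Zfp), mostly repressors, gave 52 higher and 7 lower of 277, with 34 higher without harringtonine replicate 4 and 81 with the replicate block. Without untreated replicate 4, 1 nonsense-mediated decay factor was higher and 1 splicing factor lower.

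Receptors and signalling proteins of T cells moved in both directions, where 9.84% of all genes were higher and 10.6% lower. The shares higher and lower were 23.3% and 3.33% for cytokine receptors and SOCS proteins, and 30% and 5% for costimulatory and checkpoint receptors. They were 19.2% and 0% for cytokines and chemokines. T cell receptor signalling had 16.7% and 19.05% (median -0.04), and the naive, quiescent list 16.2% and 13.5% (median 0.19). Among cytokine receptors and SOCS proteins, 7 of 30 were higher, including Il4ra (1.41), Cish (1.35) and Socs3 (1.20), and Il10ra (-1.14) was lower. Of 20 costimulatory and checkpoint receptors, Havcr2, Pdcd1, Tnfrsf1b, Tnfrsf18, Tnfrsf4 and Ctla4 were higher and Cd96 lower. Cytokine and chemokine genes gave 5 higher and 0 lower of 26, with Cxcl10 at 1.45 and Lta at 1.06. Without untreated replicate 4 the receptors had 4 higher and the cytokines 2, without harringtonine replicate 2 or untreated replicate 3 they had 4 and 3, and without harringtonine replicate 4 they had 5 and 3. In the T cell receptor signalling list 7 were higher and 8 lower of 42: the scaffold Malt1 (1.0) and the kinase Txk (0.83) rose, while the phosphatase Ptpn6 (-1.63) and the surface protein Thy1 (-1.53) fell. Thy1 stood at 32.1, 30.7 and 24.5 CPM with harringtonine and 122, 80.6 and 52.3 CPM without, and the groups did not overlap. Of 37 genes of the naive, quiescent state, 6 were higher, led by the homing receptor Ccr7 (1.52 ± 0.27), and 5 lower.

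The 12 largest falls included genes of metabolism, the cytoskeleton and the cell surface. Idh1, the cytosolic isocitrate dehydrogenase, was at 1.53, 1.83 and 2.66 CPM with harringtonine and 10.1, 20.7 and 25.2 CPM without, a log2 change of -3.15 ± 0.46 (adjusted p = 2.7e-07, edgeR). Flna, the actin cross-linker filamin A (chrX:74223461-74249820, GRCm38), fell from 1886, 1633 and 1474 CPM to 374, 238 and 285 CPM, a log2 change of -2.48 ± 0.20 (adjusted p = 6.3e-17, edgeR). Vim, the intermediate filament protein vimentin, fell from 249.7, 187 and 178 CPM to 59, 40.8 and 50.1 CPM, a log2 change of -2.04 ± 0.48. The tetraspanin Cd9, the membrane protein Vat1, the zinc finger Zfp367 and Dpysl2, a regulator of microtubules, fell with log2 changes of -2.47, -2.40, -2.39 and -2.27. Gpd1l, Aida, Wfikkn2 and Snn followed, with log2 changes between -2.25 and -2.11. These 11 genes stay below 0 on the ERCC scale, from -2.11 for Idh1 to -1.02 for Vim.

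Genes of sterol synthesis and of glycolysis were lower relative to the typical gene. The share lower was 31.0% for sterol and lipid genes, 41.7% for glycolysis and 24.3% for chaperones, against 10.6% of all genes. Of 29 sterol and lipid genes, 9 were lower and 0 higher (median -0.40, 0.69 on the ERCC scale), among them the squalene epoxidase Sqle and the regulator Srebf2 (-0.82). Sqle fell from 12.8, 14.4 and 16.4 CPM to 4.07, 3.44 and 4.25 CPM, a log2 change of -1.90 ± 0.37 (adjusted p = 8.1e-05, edgeR; -0.86 on the ERCC scale). Of 24 glycolytic genes, 10 were lower and 1, the glucose transporter Slc2a3 (0.69), higher (median -0.50, 0.51 on the ERCC scale). The number of glycolytic genes lower was 5 without harringtonine replicate 3, 6 without harringtonine replicate 4 or untreated replicate 2 and 6 by DESeq2. Eno1, the enolase, fell from 55.9, 36.9 and 37.9 CPM to 16.8, 12.2 and 11.2 CPM, a log2 change of -1.72 ± 0.28 (-0.71 on the ERCC scale). Of 37 chaperones, 9 were lower and 1 higher, with a median of -0.28 that becomes 0.75 on the ERCC scale and 4 lower without untreated replicate 4 or 5 without harringtonine replicate 3, and Canx (-1.23) and Pdia3 (-1.21) of the endoplasmic reticulum changed most. The tubulin Tubb5 had -1.31 (-0.28 on the ERCC scale), and the cell cycle genes Ccnb1, a cyclin, and Cdc25b, a phosphatase that activates its kinase, had -1.77 and -1.77 (-0.70 and -0.75). Their lists did not fall as groups. Of 13 tubulins, 2 (15.4%) were lower and 0 higher, with a median of -0.05. Of 32 cell cycle and Gadd45 genes, 6 (18.75%) were lower and 4 (12.5%) higher, with a median of -0.12.

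Messages for ribosomal proteins, which carry a terminal oligopyrimidine tract at their 5′ end and answer to mTOR, fell relative to the typical gene, while their counts per spike-in overlapped between the groups. Of 82 tested, 53 (64.6%) were lower and 1, the ribosomal-protein-like Rpl7l1 (0.60), higher, against 10.6% and 9.84% of all genes. The median was -0.84, which becomes 0.21 on the ERCC scale. Without harringtonine replicate 3 or 4 the number lower was 28 or 35, under RLE size factors 31 and by DESeq2 33. The large subunit gave 33 lower of 49 and the small subunit 20 lower of 32. Summed counts per ERCC count were 2.51, 1.62 and 1.95 with harringtonine and 2.30, 1.25 and 1.82 without, overlapping groups with a ratio of 115% (exact permutation test, two-sided, p = 0.6), while all 3 same-numbered pairs lay above 100%, between 107% and 129%. Rps24 fell from 1971, 2374 and 2688 CPM to 1102, 928 and 1153 CPM, a log2 change of -1.14 ± 0.23 (-0.08 on the ERCC scale). Rpl4 had a log2 change of -0.94 ± 0.17 (0.10 on the ERCC scale). The introns of Rps24 had one of -0.05 ± 0.33 that was not called. Translation factors and other messages of this class gave 14 lower and 0 higher of 46 (30.4% lower, median -0.31, 0.72 on the ERCC scale), with Eef1a1 (-1.05, on the ERCC scale 0.01), Tpt1 (-1.11) and Pabpc1 (-1.08) among them. A pyrimidine run of at least 6 bases touching the 11 bases around the annotated start was found in 52.5% of the 61 ribosomal protein genes with a RefSeq promoter entry against 24.5% of all tested genes. It was found in 25.7% of the 35 translation factor genes with an entry and in 24.4% of all genes called lower. The 5′ region of 3 genes that hold a run is printed with it in capitals:
Rpl4, chr9:64173367-64173396, plus strand: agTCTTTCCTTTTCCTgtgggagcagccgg
Rps24, chr14:24490668-24490697, plus strand: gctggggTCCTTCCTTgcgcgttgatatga
Eef1a1, chr9:78481705-78481734, minus strand: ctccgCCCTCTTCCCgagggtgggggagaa

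Messages encoded by mitochondrial DNA were also lower relative to the typical gene. Of 13 tested, 6 (46.2%) were lower and 0 higher, against 10.6% and 9.84% of all genes. The median of the 13 was -1.32, and -0.29 on the ERCC scale. mt-Nd3, a subunit of complex I, had the largest change, from 203, 260.2 and 471 CPM to 61.6, 69 and 102 CPM (log2 change -2.0 ± 0.38, adjusted p = 6.5e-05, edgeR). Summed mitochondrial counts per ERCC count were 0.160, 0.145 and 0.150 with harringtonine and 0.211, 0.149 and 0.222 without, a ratio of 79.2% over overlapping groups (exact permutation test, two-sided, p = 0.3), with all 3 same-numbered pairs below 100%, between 67.7% and 97.2%. With the replicate block 10 of the 13 were lower. Nuclear genes of the respiratory chain gave 7 lower of 78, with 1 without untreated replicate 4 and 3 without harringtonine replicate 2 or 3, and mitochondrial ribosome genes 7 higher of 77, with 4 without harringtonine replicate 4. Both shares, 8.97% and 9.09%, were below those of all genes.

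Targets of the amino acid response factor ATF4 were called in shares near those of all genes, 12.2% higher and 12.2% lower against 9.84% and 10.6%. Of 41 tested, Atf3, Ddit3 (1.52), Atf4 itself (1.52), Ppp1r15a (1.21) and Slc3a2 (1.0) were higher, while Trib3 (-1.47), Pck2, Psph, Mthfd2 and Psat1 were lower, the last 4 between -1.08 and -0.76. The number lower was 1 without harringtonine replicate 4 or untreated replicate 2, 2 without harringtonine replicate 3, 3 without untreated replicate 3 and 10 with the replicate block. Of 26 p53 targets, 3 (11.5%) were higher and 5 (19.2%) lower, and leaving out 1 library gave 1 to 3 and 2 to 5. Antigen presentation by MHC class I gave 6 lower (33.3%) and 2 higher (11.1%) of 18 (median -0.34, 0.66 on the ERCC scale). Without untreated replicate 2 there were 2 lower, and without harringtonine replicate 3 there were 3. Proteins that bind AU-rich messages, among them RNases, gave 1 lower of 16, Rc3h1, which encodes roquin-1.

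**Figure D3:**
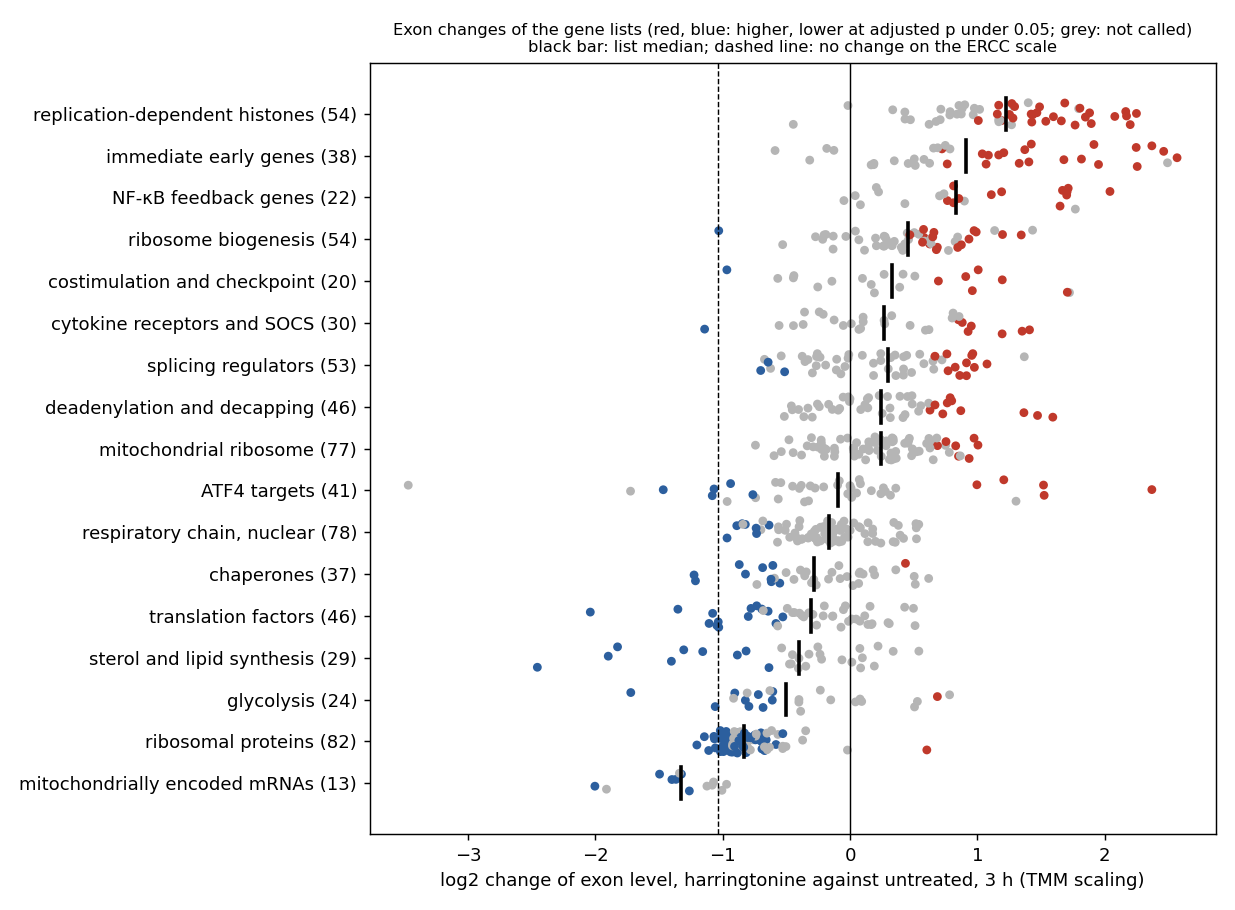
Log2 change of exon level (horizontal axis, TMM scaling) for the genes of each list; points are genes, coloured where higher or lower at an adjusted p under 0.05, the black bar is the list median and the dashed line marks no change on the ERCC scale. The medians of immediate early genes (0.91), NF-κB regulators (0.83) and histones (1.22) lie right of 0, and that of ribosomal protein genes (-0.84) lies left of 0 but right of the dashed line.

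The AU-rich nonamer TTATTTATT, known from labile messages, was looked for in annotated 3′ UTRs, with no test. It occurred in 6.97% of higher genes, 6.33% of lower genes and 7.87% of genes not called. Their median 3′ UTR lengths differed, at 917.5, 1232 and 999.5 bases, and per kilobase of 3′ UTR there were 0.0765, 0.0488 and 0.0689 nonamers. Among the 12 largest rises it was found in Dusp8, Rgs1 and Fosl2, and 2 of these sites are shown with the nonamer in capitals:
Dusp8, chr7:142081715-142081743, minus strand: tttcgattttTTATTTATTtaagctagtg
Rgs1, chr1:144243182-144243210, minus strand: taaatgtttaTTATTTATTacttgaagat

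Reads within introns stand for unspliced RNA and were fewer and noisier. Of 10750 genes tested, 144 (1.34%) were higher and 0.977% lower. With the replicate block the counts were 515 and 464, and under the scaling factors of the exon counts they were 15 and 1047, so the split between directions rests on the scaling. Ramp3, a partner of calcitonin-type receptors, gained most, from 21.5, 11.1 and 16.6 intron CPM to 189, 97.2 and 129.7 intron CPM (log2 change 3.10 ± 0.39, adjusted p = 3.7e-08, edgeR). Dusp8 introns rose by 2.89 ± 0.64, those of the ubiquitin ligase Rnf157 by 2.79 ± 0.49 and those of Mpzl1 by 2.73 ± 0.56. The introns of the fractalkine receptor gene Cx3cr1 rose by 2.42 ± 0.43, while its exons had a log2 change of -0.09 ± 0.64. Falls were led by Slc25a24, a mitochondrial carrier (-3.14 ± 0.90), Vim (-2.92 ± 0.61), Flna (-2.85 ± 0.35), the cysteinyl-tRNA synthetase gene Cars (-2.56 ± 0.35, exons -0.33) and Slc17a9 (-2.48 ± 0.36). Flna introns stood at 9.18, 6.26 and 11.4 CPM with harringtonine and 71.5, 61.8 and 61.9 CPM without, and did not overlap.

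Exons and introns were also compared within genes. Of the 1057 genes higher in exons, 936 were tested in introns, where 93 were higher and 0 lower. Of the 1141 lower in exons, 1002 were tested in introns, where 73 were lower and 0 higher. A test of the exon change against the intron change of the same gene, by limma over 8693 genes, did not pair libraries by replicate number. It called 0 genes at an adjusted p under 0.05 and 1807 at an unadjusted p under 0.05. Rgs1 (exons 2.46, introns 0.93, intron change not called) and Eef1a1 (exons -1.05, introns 0.36) were 2 genes whose estimates lay far apart without a call. In simulated data of this size the test found 33 of 89 genes changed 4-fold in exons alone, and 1 of 94 changed 2-fold. There the exon and intron counts were drawn independently, without the deviations that both share in a real library.

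**Figure D4:**
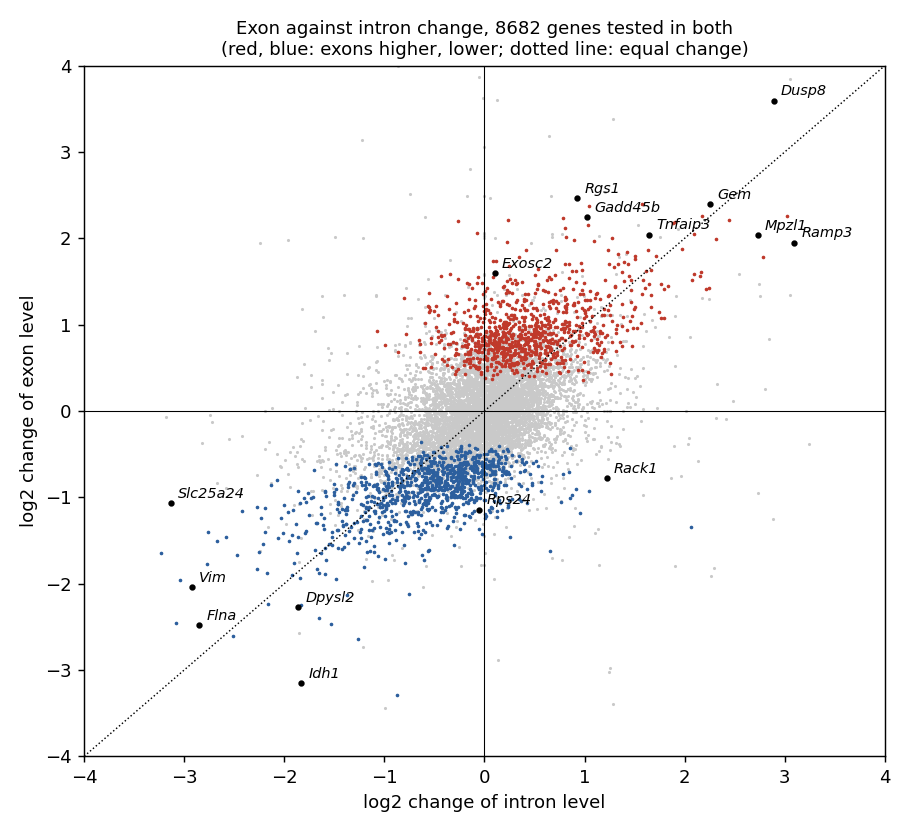
Log2 change of exon level (vertical axis) against that of intron level (horizontal axis) for 8682 genes tested in both, harringtonine against untreated; genes higher in exons are red and lower blue, and the dotted line marks equal change. 1 gene lies outside the axes, and no gene's distance from the dotted line passed the test, which did not pair libraries by replicate number.

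Cycloheximide, an inhibitor that freezes elongating ribosomes, was used at 100 µg/ml for the same 3 h. It was set against the same 3 untreated libraries, so the changes against untreated cells share their control. Cycloheximide gave 1483 higher (13.8%) and 1341 lower (12.5%) genes. Values for harringtonine and cycloheximide were 3.60 and 3.40 for Dusp8, 2.46 and 2.44 for Rgs1, -2.48 and -1.68 for Flna, and -3.15 and -2.47 for Idh1. The list medians were 1.22 and 1.69 for histones, 0.91 and 0.89 for immediate early genes, and -0.84 and -0.80 for ribosomal proteins. In the direct test of harringtonine against cycloheximide libraries 1 gene of 10741 (0.00931%) passed, the condensin II subunit Ncaph2, at -0.87 ± 0.16 (adjusted p = 0.0031, edgeR), and 490 had an unadjusted p under 0.05. With the replicate block 114 genes passed. Ncaph2 stood at 103, 84.6 and 96.6 CPM with harringtonine, 196, 159 and 165 CPM with cycloheximide and 134, 126 and 126 CPM untreated.

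At 1 h the same drug gave fewer calls, 107 higher (0.996%) and 62 lower (0.577%). Of the genes higher at 3 h, 100 were already higher at 1 h and 0 lower, and of the genes lower at 3 h, 51 were lower and 0 higher. The difference between the effects at 3 h and 1 h, with no library in common, was called for 13 genes (0.121%), 2 above (0.0186%) and 11 below (0.102%), and for 288 with the replicate block. The rise of Dusp8 was larger at 3 h, with a log2 change of 0.79 at 1 h, not called, and a difference of 2.81 ± 0.62 (adjusted p = 0.029, edgeR). The fall of Flna was larger too, from -0.55 at 1 h, not called, to -2.48 at 3 h (difference -1.93 ± 0.27, adjusted p = 3.0e-06, edgeR). Immediate early genes had a median of 0.62 at 1 h with 5 of 38 higher, while histones had 0.77 with 2 of 54 higher.

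Triptolide, which blocks the initiation of transcription by RNA polymerase II, was used at 25 µM with and without harringtonine. After 3 h of triptolide against 0 h, 2852 genes (26.6%) were higher and 3252 (30.3%) lower relative to the typical gene. Of the 1057 genes that rose with harringtonine alone, 631 fell and 118 rose under triptolide, with a median of -0.99. When harringtonine was added to triptolide, 399 of the 1057 were higher and 25 lower, where 14.6% of all genes were higher and 9.44% lower. The effect of harringtonine differed between cells with and without triptolide for 1380 genes (12.8%), 408 above (3.8%) and 972 below (9.05%), and with the block for 2669. Dusp8, which had risen by 3.60 with harringtonine alone, had a log2 change of 1.58 when triptolide was present, not called, and Rgs1 and Tnfaip3 had 0.18 and -0.23. Dusp8 was near the floor there, at 0, 0 and 0.768 CPM with triptolide and 1.19, 0.503 and 1.79 CPM with both drugs. At such levels neither the size of its change nor the missing call can be judged. Across the immediate early list 0 of 38 were higher and 1 lower with harringtonine in the presence of triptolide, with a median of -0.32, and 25 of 38 were lower with triptolide against 0 h. Of the ribosome biogenesis genes, 28 of 54 were higher with harringtonine on top of triptolide. Idh1 fell in both settings, with a log2 change of -2.12 ± 0.73 when triptolide was present.

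In activated cells the same drug gave 1665 higher and 1669 lower genes (15.5% each). The effect differed between resting and activated cells for 1036 genes (9.65%), 512 above (4.77%) and 524 below (4.88%), and for 2501 with the block. Among targets of ATF4, 20 of 41 were above and 0 below, with a median difference of 1.25. Sesn2, a stress-induced inhibitor of mTOR, was at 16.8, 19.7 and 15.8 CPM with harringtonine and 20.9, 12.6 and 10.6 CPM without in resting cells, where the groups overlapped. In activated cells it was at 18.8, 23.3 and 20.3 CPM with and 177, 211 and 185 CPM without, a difference of effects of 3.51 ± 0.39 (adjusted p = 2.5e-10, edgeR). The neutral amino acid transporter Slc1a4 (3.54 ± 0.63) and Znhit6, a factor of box C/D snoRNA assembly (3.14 ± 0.66), followed. Ribosome biogenesis genes were above in 31 of 54, with a median of 0.45 in resting and -0.59 in activated cells. The effect was lower for Ptgir, the prostacyclin receptor (-3.54 ± 0.62), and the peptidoglycan-binding protein gene Pglyrp2 (-3.51 ± 0.43). Of the 38 immediate early genes, 8 were below and 3 above.

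**Figure D5:**
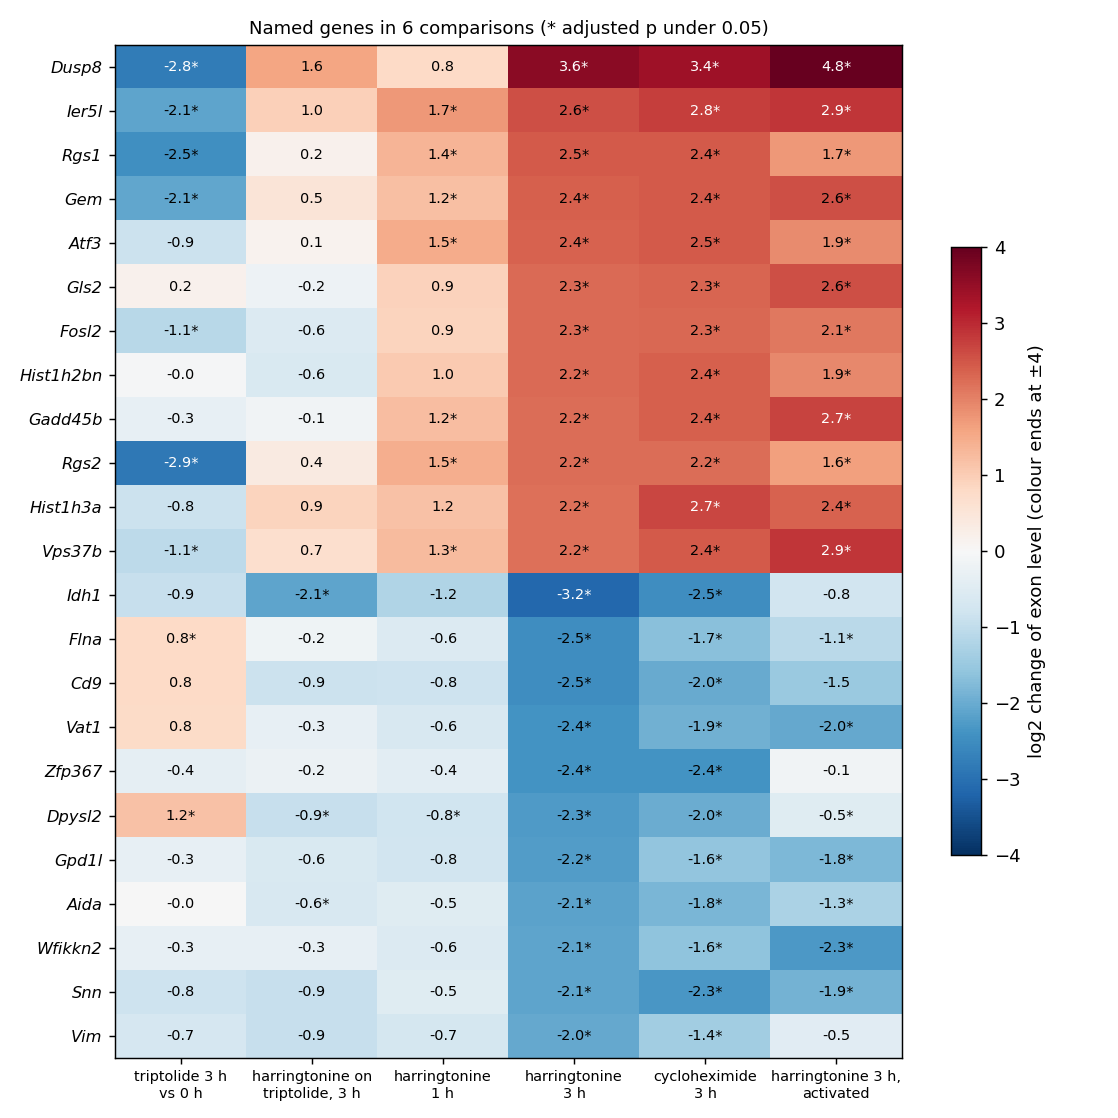
Log2 change of exon level (colour, ending at ±4) of the named genes (rows) in 6 comparisons (columns); asterisks mark an adjusted p under 0.05. The harringtonine and cycloheximide columns at 3 h share their untreated libraries. Dusp8 reads 3.60 with harringtonine alone and 1.58 when harringtonine was added to triptolide, where its highest level was 1.79 CPM, near the floor.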

How the data were processed

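RNA was sequenced from resting and activated mouse CD4+ T cells, and 35 groups of 3 libraries entered the analysis. The deposited table holds whole-number counts per gene for 22322 genes and 92 ERCC RNAs, which the authors made with TopHat2 2.0.13, Bowtie 1.1.1.0 and HTSeq on mm10, per the submitters' processing notes. The deposited exon counts and strictly intronic counts were used, and coding-sequence counts as an alternative. Multiple alignments were not counted, so messages with near-identical copies are undercounted.

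Counts were tested with edgeR 4.0.16 under R 4.3.3 (filterByExpr, TMM factors, robust quasi-likelihood F-test) over all libraries of the series as 35 group means, and exon against intron changes with limma 3.58.1 on the 6 libraries, log2 CPM with a prior count of 2. Genes with a Benjamini-Hochberg adjusted p under 0.05 over all genes tested were called. Errors of log2 changes are standard errors, and CPM are TMM-scaled. Replicate numbers 2, 3 and 4 pair the libraries: deviations from the group means correlated at 0.56, 0.34 and 0.54 over 7987 genes in same-numbered pairs. Counts per ERCC count were compared by exact permutation. Sequences came from GENCODE M21 and RefSeq (GRCm38). DESeq2 1.42.0, other scalings, filters and leave-outs were alternatives, and left-out fits kept the dispersions of the full fit.

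On simulated counts of 10741 genes, the exon test found 67 of 100 genes changed 2-fold and 98 of 100 changed 4-fold, with 7 false calls. Named genes are the 12 largest rises and falls of called, non-overlapping genes with at least 10 CPM in 1 group, from each of 43 lists the 2 most abundant members and the 2 of smallest p, and 5 and 3 genes each way for introns and differences. A few genes that the rule names are not reported here. Other list members named are called members picked after their values were seen. The members and lists were chosen with earlier results of these data known.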

Additional observations from a re-analysis of the deposited data

Results flagged for a closer look

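Each gene here had a harringtonine effect in resting cells at 3 h that differed, by a test of the difference itself (edgeR, Benjamini-Hochberg adjusted), from its effect in activated cells at 3 h or in resting cells at 1 h.

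Against activated cells, Slc1a4 was higher by 3.54 ± 0.63 (adjusted p = 4.0e-05, edgeR), Sesn2 by 3.51 ± 0.39 (adjusted p = 2.5e-10) and Znhit6 by 3.14 ± 0.66 (adjusted p = 5.3e-04) on the log2 scale. In resting cells Slc1a4 stood at 4.07, 3.21 and 2.48 CPM with harringtonine and 2.69, 1.35 and 0.757 CPM without. In activated cells it stood at 43.6, 63.2 and 34.6 CPM and 204, 307 and 222 CPM, so the activated libraries without the drug were the high ones. The effect was lower in resting cells for Ptgir (log2 -3.54 ± 0.62, adjusted p = 3.1e-05) and Pglyrp2 (-3.51 ± 0.43, 6.7e-09). Zfp367 (-2.27 ± 0.51, adjusted p = 0.0012), Tec, a kinase of T cell receptor signalling (-1.75 ± 0.49, 0.011), and Flna (-1.39 ± 0.27, 1.4e-04) also differed.

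Against 1 h, Dusp8 (2.81 ± 0.62, adjusted p = 0.029, edgeR) and the transporter Slc38a6 (1.22 ± 0.27, 0.029) were higher at 3 h. Tec (-2.0 ± 0.38, 0.003), Zfp367 (-1.97 ± 0.44, 0.029), Flna (-1.93 ± 0.27, 3.0e-06) and the ubiquitin ligase gene Znrf2 (-0.99 ± 0.21, 0.016) were lower at 3 h than at 1 h. Tec stood at 14.3, 11.2 and 11 CPM with harringtonine at 3 h and 35, 43.2 and 57.8 CPM without, and at 36.7, 32.7 and 34.7 CPM and 36.7, 29.9 and 33.3 CPM at 1 h.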

How the results depend on the processing

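Exon counts gave 1882 higher and 2083 lower genes under the replicate block within each cell state, 6453 and 21 on the ERCC scale, 7742 and 45 with both, the last chosen after seeing the data, and 8276 and 7 when scaled on mitochondrial messages. DESeq2 called 732 genes lower in place of 1141. Leaving out 1 library gave 718 to 1010 higher and 757 to 1070 lower genes, the 757 without harringtonine replicate 4. Intron counts gave 515 higher and 464 lower genes under the block, 15 and 1047 with the exon TMM factors, 78 and 48 without a filter, 566 and 586 from the 6 libraries alone and 38 and 8 on the ERCC scale, with 198 lower under RLE size factors. Leave-outs gave 60 to 111 and 43 to 72, in each direction more than 1.5 times below the full count for 5 of the 6 libraries. Under the block the differences of effects were called for 2501 genes against activated cells, 288 against 1 h, 114 against cycloheximide and 2669 against harringtonine under triptolide. On the ERCC scale the last 3 were 0, 0 and 466, where ERCC-00002 made up 40.3% to 44.2% of spike-in counts with triptolide and 23.3% to 24.7% with triptolide and harringtonine, the reverse of the pair without triptolide, and leave-outs of the 1 h and cycloheximide results gave 3 to 9 and 0 to 2. Exon counts per ERCC count differed by 1.39 (log2) without ERCC-00002 and by 0.83 on ERCC-00096 alone, chosen after seeing the data; the cause was not tested.

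Of the 83 called genes with a value in the text, the block kept all 83 and DESeq2 80, while coding-sequence counts lost 9, leaving out 1 library lost 4 to 13, the 13 without harringtonine replicate 4, untreated replicate 3 or untreated replicate 4, and the ERCC scale lost 16 and kept 61. Reversed means here that the sign changed, whether or not the gene was called on the other scale. On the ERCC scale 6 were reversed: Rpl4 (0.10), Eef1a1 (0.011), Npm1 (0.035), Psat1 (0.33), Srebf2 (0.20) and Srsf1 (0.40). Scaled on mitochondrial messages 12 were lost and 14 reversed, with values of 0.46 for Rpl4, 0.36 for Eef1a1, 0.39 for Npm1, 0.66 for Psat1, 0.55 for Srebf2, 0.78 for Srsf1, 0.21 for Canx, 0.24 for Il10ra, 0.33 for Pabpc1, 0.26 for Pck2, 0.18 for Pdia3, 0.27 for Rps24, 0.30 for Tpt1 and 0.070 for Tubb5. Cars, whose exons were not called, had 1.14. The cause of these reversals is the scaling itself, which moves every gene upward. On simulated counts the intron test found 42 of 100 genes changed 2-fold where the exon test found 67 of 100, and the part of depth in this was not tested.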

Other observations

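Other gene lists held few called members, in shares that are set beside those of all genes, 9.84% higher and 10.6% lower. Of 18 genes of the BCL2 and IAP families, the survival factor Bcl2l1 (1.27 ± 0.32) and the death factor Bcl2l11, which encodes BIM (0.99 ± 0.18), were higher, as was Birc3, and Bax and Xiap were lower, 16.7% and 11.1%. Bcl2l1 stood at 44.8, 42 and 51.9 CPM with harringtonine and 22.9, 16.2 and 19.2 CPM without, and the groups did not overlap. Of 48 interferon genes, Irf1 (0.96) was higher and Gbp2 (-1.41), Oas3 and Ddx58 were lower, 2.08% and 6.25%, under both shares of all genes. In polyamine and iron metabolism, Odc1, the first enzyme of polyamine synthesis (0.92), and Smox (1.07) were higher, and Sms, Tfrc and Aco1 lower, 11.8% and 17.6% of 17. The proteasome gave 2 higher (4.08%) and 6 lower (12.2%) of 49, with a median of -0.01. Leaving out single libraries moved these small counts by more than 1.5 times, as with 0 lower BCL2 family members without harringtonine replicate 3 or 4, 1 lower interferon gene without harringtonine replicate 4, 3 lower proteasome genes without harringtonine replicate 2 and 1 lower polyamine or iron gene without untreated replicate 4.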
